A study of Saccharomyces cerevisiae with 10 samples.

Results

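The small subunit of the cytoplasmic ribosome of the yeast Saccharomyces cerevisiae is built from the 18S ribosomal RNA and the proteins of the RPS genes. RNA levels of these genes were followed in a wild-type strain and in a strain lacking EDC3. Members were the probe sets that the platform annotation pairs with 1 gene whose symbol starts with RPS and a digit, apart from RPS28A and RPS28B. They numbered 43 of the 9335 probe sets on the array and stood for 31 of the 5656 genes with a probe set of their own. Of the 31 genes, 24 were the A and B copies of 12 paralog pairs and 7 had no measured partner (RPS2, RPS3, RPS12, RPS13, RPS15, RPS20 and RPS31). A single probe set measured 20 of the genes, 2 probe sets measured 10 and 3 measured RPS22B. All 43 passed the filter on dim probe sets. The wild type was strain HFY114. The edc3 deletion strain is named CFY25 in the sample labels and SYY14 in the design text, which calls it isogenic with the wild type. Both grew in the rich medium YEPD at 30 °C without treatment. Total RNA of 5 samples per strain was hybridised to Affymetrix Yeast Genome S98 arrays, with 1 wild-type and 1 edc3 array under each of the experiment letters A, B, C, E and G. No source used here says whether each strain was a single isolate.

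The small subunit binds mRNA and decodes it. In S. cerevisiae many of its proteins are encoded by a pair of genes left from an ancient duplication of the genome, and the copies make identical or nearly identical proteins. Transcription of ribosomal protein genes is controlled as a group through Rap1, Fhl1, Ifh1 and Sfp1, downstream of the TORC1 and protein kinase A pathways, and their mRNAs are among the most abundant of growing cells. Edc3 stimulates removal of the 5′ cap of mRNA. The comparison asks which RNA levels differ once it is missing.

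The values are MAS5 signals, 1 per probe set and array, on a linear scale. A probe set holds oligonucleotides of its own, so signals are compared between arrays and never between probe sets. Names ending in _f_at, carried by 14 of the 43, mark probes that match a family of similar sequences, so RNA of a paralog can add to their signal. The median signal of an array was 58.2 to 66.8. Within a strain the arrays of E and G were nearly alike. Their log2 values, taken for the 2653 probe sets that averaged more than 200, differed with a median absolute deviation of 0.0614 for wild type and 0.0556 for edc3. For other array pairs of a strain this measure was 0.141 to 0.325, and for the strains under one letter it was 0.0892 to 0.132. The sample titles call all 5 letters biological replicates, and no source used here says more on how the cultures of E and G were grown. They were kept as separate replicates, as labelled, and results with both averaged are given where they differ.

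EDC3 (YEL015W) read 456.8 to 480.5 on the wild-type arrays and at most 2.3 on the edc3 arrays (limma adjusted p = 0.000173), so its signal matched the labels of all 10 arrays. The edc3 readings lie below the filter's cut at 16.8, so the size of the log2 difference rests on the floor given to low signals: it was -8.97 ± 0.69 (SE), and -4.80 with an offset of 16.

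No member passed the test for a difference between the strains. Of the 43 probe sets, 0 were called at an adjusted p under 0.05 by limma, against 5 of all 6492 tested probe sets (0.077%). With the experiment letter as a block 0 members were called, against 29 probe sets in all (0.447%). The log2 differences of the members, edc3 minus wild type, ran from -0.16 to 0.30, with standard errors of 0.06 to 0.33. Their median was -0.025, beside -0.0037 over all tested probe sets. Of the members 17 were higher in edc3, against 48.9% of all tested probe sets, and 26 were lower. With quantile normalization the median was 0.020 and 15 were lower. The members' median under single letters was -0.016 in A, -0.042 in B, 0.036 in C, -0.059 in E and -0.081 in G. An unadjusted p under 0.05 was reached by 1 member, against 4.82% of all tested probe sets, and that member was higher in edc3 (2.66% of all). With the block 11 members (25.6%) reached it, against 23.1%. Of these 3 were higher, against 11.7%, and 8 were lower, against 11.4%. The direction differed with the signal. Of 22 members with a mean signal above 3000, 19 were lower, and of the 21 others 7 were. Of 114 probe sets above 3000 without an RPS or RPL name, 91 were lower. With the block 44 of these 114 had an unadjusted limma p under 0.05, of which 40 were lower. With quantile normalization 9 of the 22 and 64 of the 114 were lower. A difference of the same sign under all 5 letters was seen in 11 members, 4 higher and 7 lower, against 20.5% of all tested probe sets.

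RPS25A (YGR027C), whose protein sits on the head of the small subunit, had the smallest p of the members. Its probe set 5000_i_at read 718, 831, 949.6, 853 and 899 on the wild-type arrays and 872, 952, 1086, 1135 and 1214 on the edc3 arrays, in the order A, B, C, E, G. The edc3 array was the higher under every letter, while the ranges of the strains overlapped. The log2 difference was 0.30 ± 0.11 (SE), or 1.23-fold, and it did not pass (limma adjusted p = 0.933, and 0.0501 with the block). Its exact two-sided permutation p was 0.0317, unadjusted. The other RPS25A probe set, 5001_f_at, averaged 3565 ± 357 in wild type and 3573 ± 426 in edc3 (SD, n = 5 each). Its log2 difference was 0.00077 ± 0.10 (SE). The probe sets of this gene therefore gave unlike values, and the one near 0 carries the family mark.

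RPS9A (YPL081W), whose protein affects the accuracy of decoding, was the 1 member whose strains did not overlap, against 1.2% of all tested probe sets. Its probe set, 7855_f_at, carries the family mark, so RNA of the paralog RPS9B can add to the signal. It read 1630.4, 1736, 1715, 1699.5 and 1731 on the wild-type arrays and 1609, 1538, 1620.1, 1519 and 1561 on the edc3 arrays. Every edc3 array lay below every wild-type array, with the smallest gap under A. The log2 difference was -0.12 ± 0.06 (SE; limma adjusted p = 0.999, and 0.143 with the block). The exact two-sided permutation p of 0.00794 is unadjusted and the smallest that 5 against 5 arrays can give. Of the 43 members 2 had an exact permutation p under 0.05, RPS9A and RPS25A, against 5.41% of all tested probe sets. The paralog RPS9B gave log2 differences of 0.10 ± 0.10 at 7190_i_at and 0.015 ± 0.080 at 7191_f_at (SE).

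**Figure D1:**
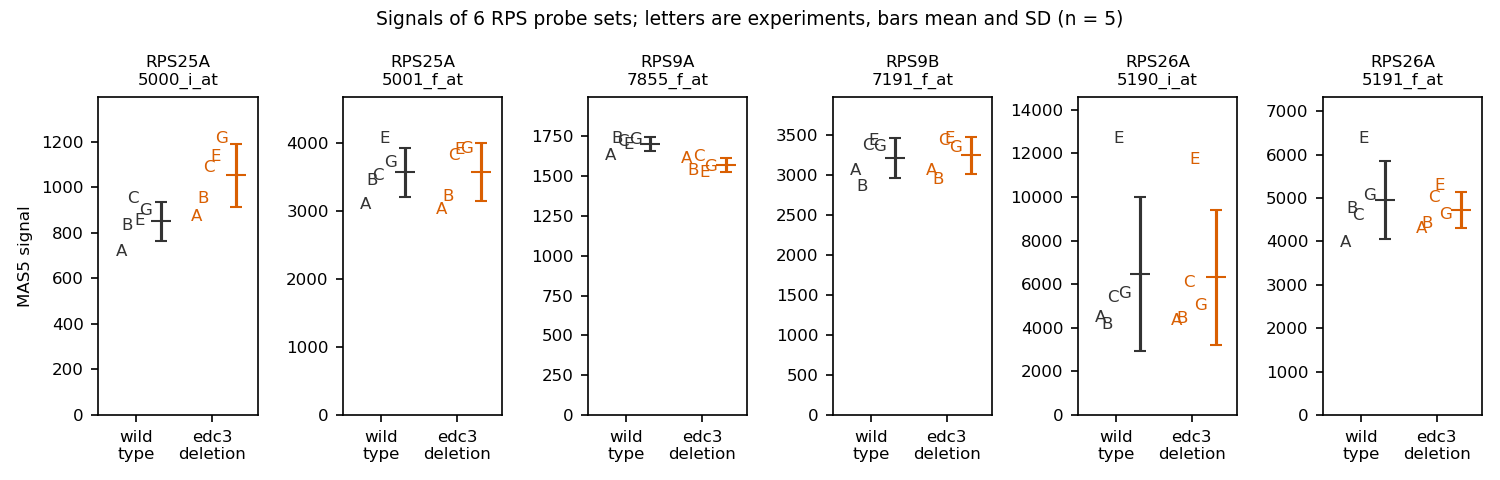
MAS5 signal (linear axis from 0) of 6 RPS probe sets in wild type and in the edc3 deletion strain. Letters are the experiments and bars the mean and SD of 5 arrays. RPS9A is the 1 panel whose strains do not overlap, and RPS26A 5190_i_at reads 12690 and 11699 in experiment E, far above its other arrays.

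RPS3 (YNL178W), whose protein lines the channel through which mRNA enters, was lower in edc3 under all 5 letters. Its signal was 5539, 5403, 6413, 7936 and 6264 in wild type and 5048, 5115, 6141, 6666 and 5237 in edc3. Values were highest under E in both strains, and the ranges overlapped. The log2 difference of -0.16 ± 0.12 (SE) did not pass (limma adjusted p = 0.999, and 0.0882 with the block).

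RPS21B (YJL136C) had the lowest log2 difference of the members on the deposited scale. It read 6972, 7181, 7989, 12044 and 7824 in wild type and 6279, 6288, 8342, 9646 and 6739 in edc3. The edc3 array was the lower under 4 of 5 letters and the ranges overlapped. The log2 difference was -0.16 ± 0.16 (SE; limma adjusted p = 0.999, and 0.119 with the block). It was -0.026 with quantile normalization, where RPS22B 9948_f_at (-0.12) and RPS9A (-0.12) were lower, and also -0.026 without the wild-type E array.

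RPS10A (YOR293W) read 1631, 1097, 1359, 1190.3 and 1156 in wild type and 1752, 1343, 1333, 1436 and 1484 in edc3 at 8269_f_at. It was higher in edc3 under all letters but C, with overlapping ranges and a log2 difference of 0.20 ± 0.12 (SE; limma adjusted p = 0.999, and 0.113 with the block). Its other probe set, 8270_f_at, gave -0.031 ± 0.075 (SE). RPS22B (YLR367W) was lower in edc3 at all 3 of its probe sets, with log2 differences of -0.13 ± 0.09, -0.083 ± 0.070 and -0.071 ± 0.11 (SE), of which 0 passed. RPS25B 10003_f_at (YLR333C; log2 difference -0.10 ± 0.07, SE) and RPS1A (YLR441C; -0.093 ± 0.070, SE) were lower under all 5 letters. The other RPS25B probe set, 10002_i_at, without the family mark, was higher under 4 of 5 (0.035 ± 0.11, SE). RPS20 (YHL015W; 0.092 ± 0.071, SE) was higher under all 5. All of these had a limma adjusted p of 0.999. Among the 11 genes with several probe sets, the gap between their log2 differences was largest for RPS25A, at 0.30, followed by RPS10A at 0.23.

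**Figure D2:**
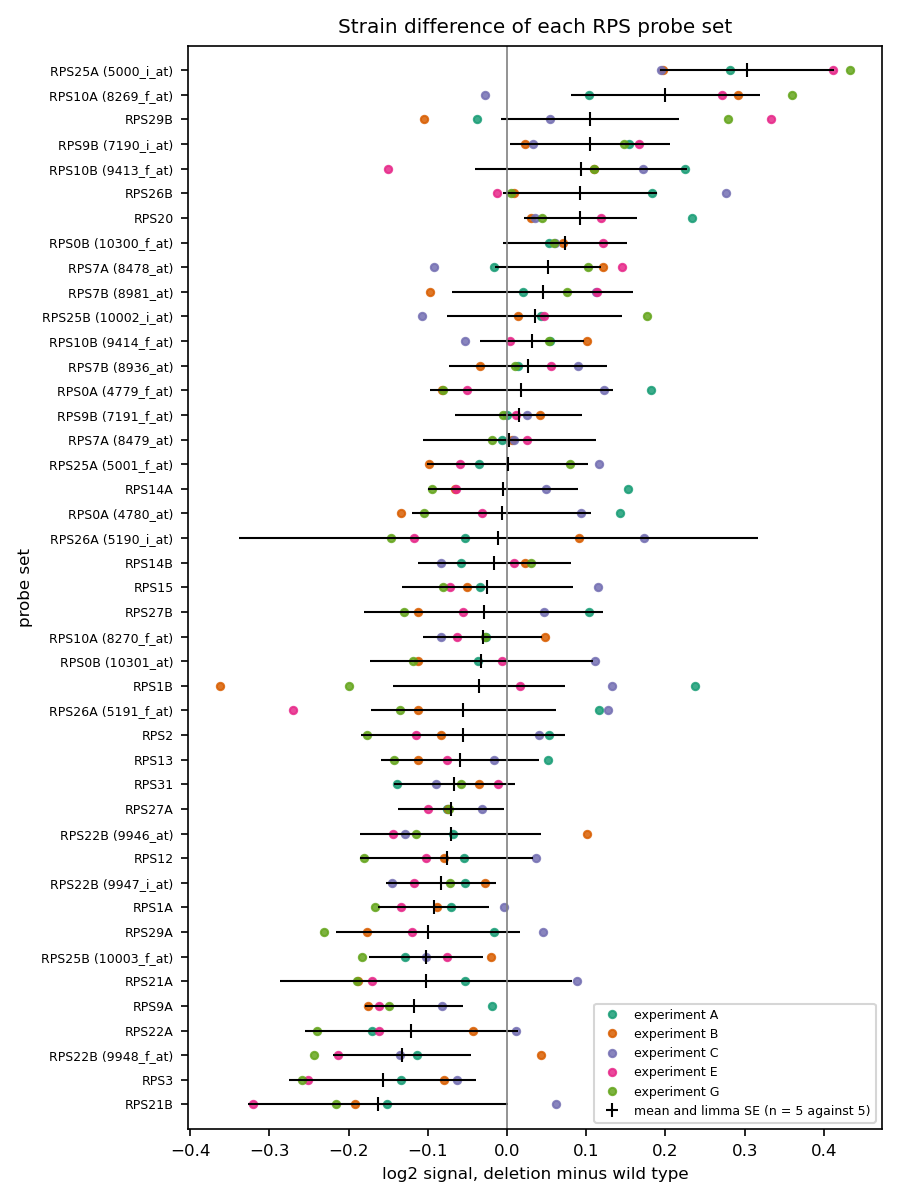
Log2 signal of the deletion strain minus wild type for each of the 43 RPS probe sets, ordered by the mean. Coloured points are the 5 experiments, and the bar is limma's SE (n = 5 against 5). The means run from -0.16 to 0.30, and 11 probe sets have all 5 points on one side of 0.

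With experiments E and G alone 4 members were called. RPS25A 5000_i_at, RPS10A 8269_f_at and RPS29B were higher in edc3, with log2 differences of 0.42, 0.32 and 0.31, and RPS22B 9948_f_at was lower, with -0.23. The limma adjusted p-values on these 4 arrays were 0.00532, 0.00902, 0.0388 and 0.0472. That fit called 19.5% of all tested probe sets, a larger share than 4 of 43. Within a strain the arrays of E and G differed less than other pairs, so these p-values rest on a small spread. If E and G share a culture, that spread is technical. With A, B and C alone 0 members were called and 0 had an unadjusted p under 0.05, and the same counts held with E and G averaged.

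An F test over the 5 letters, with the strain in the model, called 31 of the 43 at an adjusted p under 0.05, against 51.8% of all tested probe sets. It called 21 with quantile normalization, against 46.7%, 23 without the intensity trend, against 45.7%, and 15 with A, B and C alone, against 16.6%. Bright probe sets were called more often in the main setting, with or without an RPS name. Of 114 with a mean signal above 3000 and no RPS or RPL name, 94 were called (82.5%). Of the members, 19 of the 22 above 3000 and 12 of the 21 of 3000 or less were called. The SD of a member between letters was 0.16 in the median, against 0.097 for its median absolute difference between the strains, both on the log2 scale. The SD was the larger in 33 of the 43 members and in 66.2% of all tested probe sets. From its lowest to its highest letter a member changed 1.33-fold in the median, with a range of 1.04 to 2.84-fold. E was the highest letter in 22 members, against 13.3% of all tested probe sets, and A was the lowest in 22, against 17.1%. Both held in 12 members, against 4.68%. Bright probe sets outside the members showed the same lean. Of the 114 above 3000 without an RPS or RPL name, E was highest in 94 and A lowest in 52. Of 42 large-subunit ribosomal protein genes, E was highest in 29 and A lowest in 22. Of the 21 members of 3000 or less, E was highest in 3 and A lowest in 10.

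**Figure D3:**
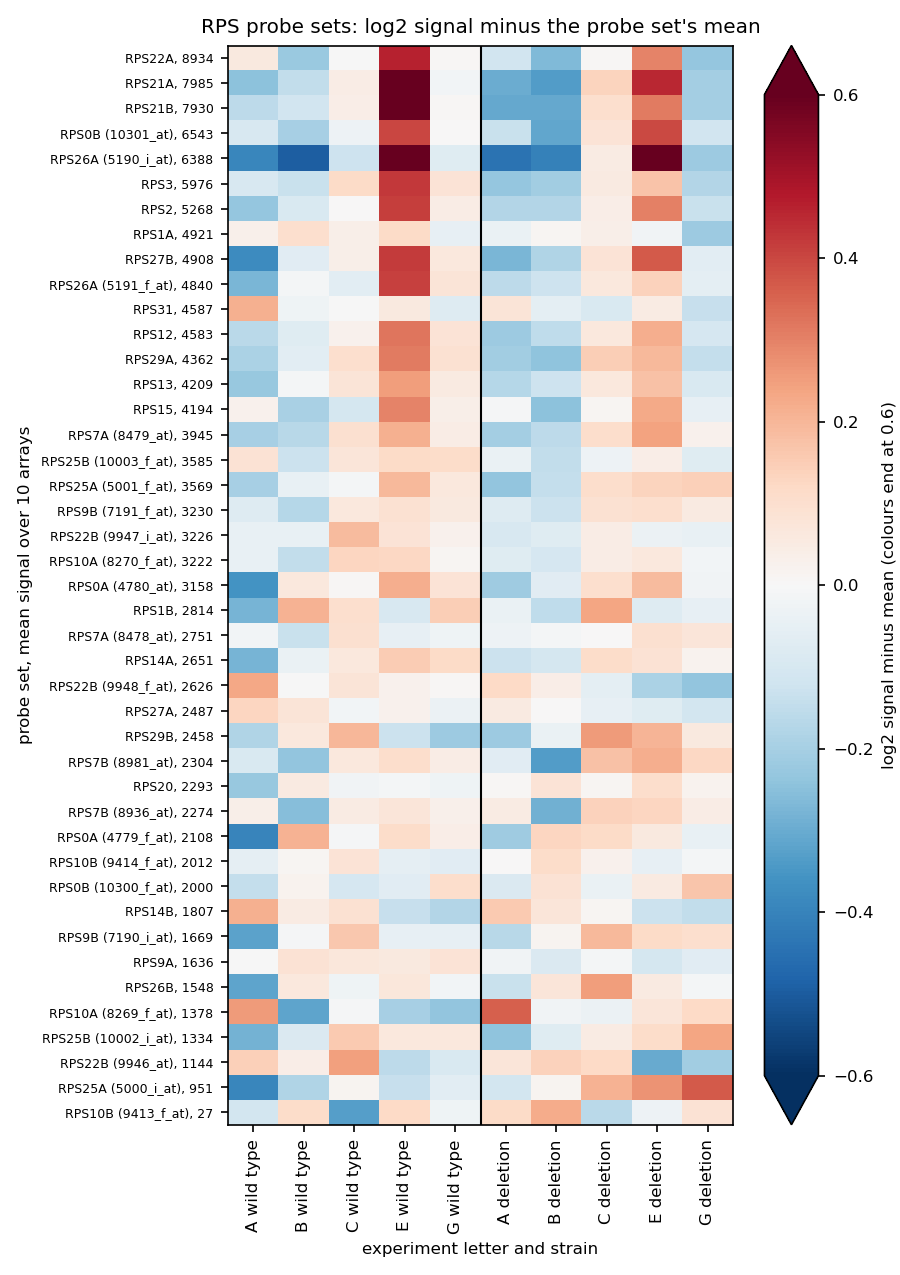
Log2 signal of the 43 RPS probe sets on the 10 arrays, each minus its own mean, with rows ordered by mean signal (printed beside the name) and arrays by strain and letter. Colours end at 0.6. In the rows with a mean signal above 3000, E is the highest letter in 19 of 22.

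RPS26A (YGL189C), whose protein lies at the exit of the mRNA channel, changed most between letters. Its probe set 5190_i_at read 4478, 4164, 5393, 12690 and 5585 in wild type and 4317, 4434, 6078, 11699 and 5045 in edc3, in the order A, B, C, E, G. Both E arrays were at least 1.92-fold above every other array (F test adjusted p = 1.01e-04), and the strains gave a log2 difference of -0.011 ± 0.33 (SE). With quantile normalization E stayed the highest, by at least 1.40-fold. The second RPS26A probe set, 5191_f_at, had letter means of 4134, 4582, 4803, 5804 and 4834, a smaller excess in E.

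RPS21A (YKR057W), RPS27B (YHR021C), RPS0B 10301_at (YLR048W) and RPS7A 8479_at (YOR096W) had the next smallest p of the F test, all highest under E in both strains. RPS21A had letter means, as geometric means of both strains, of 6452, 6592, 8283, 11322 and 7220 (F test adjusted p = 0.000492). RPS27B, which makes a zinc-binding protein, had 3856, 4440.05, 5035, 6359 and 4838 (adjusted p = 0.000959). RPS0B, whose protein is needed for maturation of the subunit, had 5963, 5419, 6578, 8524 and 6219 (adjusted p = 0.00102). RPS7A 8479_at had 3412, 3505, 4207, 4589 and 4015 (adjusted p = 0.0012). With quantile normalization the calls of RPS21A (adjusted p = 0.132) and RPS0B (0.194) were lost. RPS0B also missed the threshold without letter E (0.0537) and with A, B and C alone (0.0662). By size of change, RPS21B (1.63-fold from its lowest to its highest letter), RPS22A (1.54-fold) and RPS2 (1.48-fold) exceeded RPS7A 8479_at (1.35-fold). With the largest p, the letter means of RPS9A ran from 1607 to 1667 (F test adjusted p = 0.937), and those of the second RPS7A probe set, 8478_at, from 2612 to 2841 (0.533).

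The genes with no measured partner mostly shared the high E values. RPS2 (YGL123W), whose protein takes part in decoding, had letter means of 4526, 4759, 5292, 6685 and 5060.3, RPS12 (YOR369C) had 3987, 4209, 4692, 5489 and 4521 and RPS13 (YDR064W) had 3647, 3997, 4399, 4858 and 4134. RPS15 (YOL040C), whose protein is needed for export of the subunit from the nucleus, had 4197, 3578, 4036, 5002 and 4148. All 4 passed the F test (adjusted p = 0.0021, 0.00329, 0.00581 and 0.0038). RPS31 (YLR167W), which encodes a fusion of ubiquitin with a ribosomal protein, was highest in A instead, with 5060.3, 4443, 4427, 4749 and 4248 (adjusted p = 0.0222). RPS20 did not pass (adjusted p = 0.214).

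The excess of E over G followed the signal. A split of the members at a mean signal of 3000 was chosen after the values were seen. All 22 members above 3000 were higher in E than in G, by 0.27 in the median and 0.034 to 1.20 on the log2 scale. Of the 21 members of 3000 or less 13 were higher in E, with a median of 0.015 and a range of -0.14 to 0.12. Bright probe sets without an RPS or RPL name gave like values: all 114 above 3000 were higher in E than in G, with a median of 0.22, while the median over all tested probe sets was -0.034. With quantile normalization the median of the bright members was -0.033 and 6 of 22 were higher in E. The instrument records give pixels of 2.5 µm and 1 scan for E, pixels of 3 µm and 2 scans for A and B, and blank entries for C. The chip lot entry of these records was the same for B and C, while A and E each had an entry of their own. No record of G was used here. The 3′ control probe set of SRB4 exceeded the 5′ one, a comparison used to judge RNA integrity, by 2.39 to 2.71 on the log2 scale in A and B and 3.17 to 4.40 in C, E and G, with the highest value on wild-type E. For SPT15 the same comparison gave overlapping ranges, 2.11 to 2.40 in A and B and 2.18 to 2.57 in C, E and G. For ACT1 it gave 0.60 to 0.70 in A and B and 0.84 to 0.99 in C, E and wild-type G. The ACT1 value of edc3 G, 0.66, lay within the range of A and B, and wild-type E was again the highest. The part of the scan settings, of the chip lot and of RNA integrity in these differences was not tested.

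**Figure D4:**
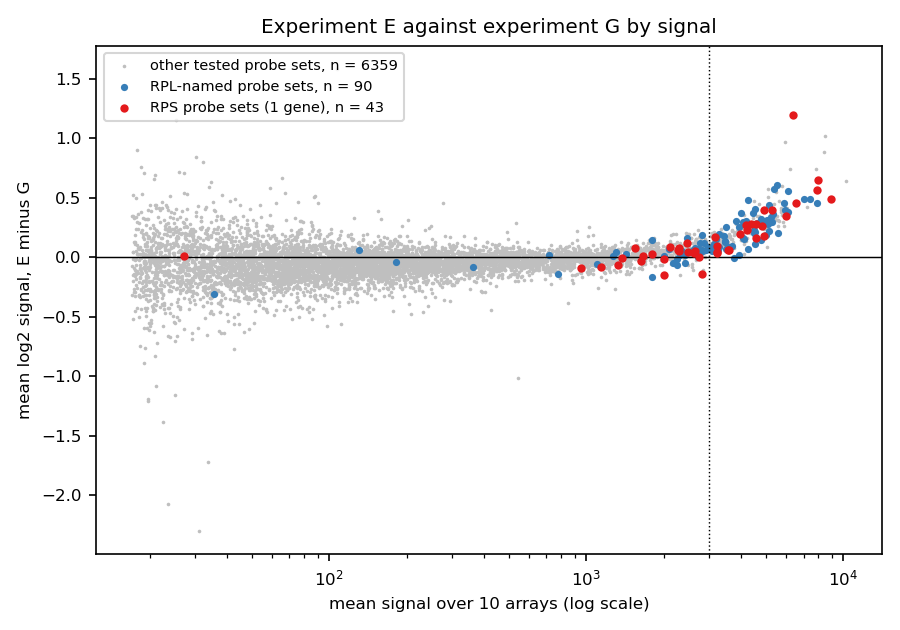
Mean log2 signal of experiment E minus experiment G (both strains averaged) against the mean signal over 10 arrays (log axis) for all tested probe sets. Above the dotted line at 3000, all 22 RPS members (red) lie over 0, among probe sets with an RPL name, alone or shared (blue), and other bright probe sets (grey). The highest red point is RPS26A 5190_i_at, at 1.20.

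Members did not all follow 1 pattern. The correlation over the 10 arrays of a member with the mean of the others had a median of 0.58, as a description over arrays that share letters and scaling. It was above 0.5 in 25 of the 43 and below 0 in 9. The lowest was -0.68, for RPS14B (YJL191W). Outside the members, the probe sets most like the members' mean were those of ACT1, the gene of actin (Pearson r = 0.989 over 10 arrays), RPL21A (0.981), RPL17A (0.980), ARF1 (0.978) and RPL31A (0.977).

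The paralog pairs were compared as the log2 ratio of the A to the B copy within an array, each copy by its probe set with the highest mean. For RPS9, RPS10, RPS25 and RPS29 both of these probe sets carry the family mark, so RNA of either copy can add to both. Of the 12 pairs, 0 changed their ratio between the strains at an exact two-sided permutation p under 0.05 (unadjusted), and 0 had strains that did not overlap. That test leaves out the pairing by letter, and the exact sign-flip test that keeps it cannot go below p = 0.0625 with 5 letters. It gave this smallest p for the 3 pairs whose ratio changed in the same direction under all 5 letters, RPS21, RPS9 and RPS10. The changes ran from -0.20 to 0.10 on the log2 scale. RPS21A over RPS21B went from -0.026 ± 0.036 in wild type to 0.034 ± 0.066 in edc3 (SD, n = 5 each; exact permutation p = 0.0794) and was higher in edc3 under all 5 letters. RPS9A over RPS9B went from -0.91 ± 0.12 to -1.05 ± 0.11 (SD, n = 5 each; exact permutation p = 0.0952) and was lower under all 5. RPS10A over RPS10B changed by -0.081, -0.053, -0.030, -0.067 and -0.080 under A, B, C, E and G, with a mean of -0.062 ± 0.021 (SD of 5 letters). That change was small but larger than its spread between letters, while the unpaired exact permutation p was 0.444. RPS29A over RPS29B, genes of a zinc-binding protein, changed by -0.20 (exact permutation p = 0.175), with log2 differences of -0.10 ± 0.12 for RPS29A and 0.10 ± 0.11 for RPS29B (limma SE). The change lay in E (-0.45) and G (-0.51), against 0.021, -0.072 and -0.0091 in A, B and C, and it was -0.020 with A, B and C alone. RPS25A over RPS25B changed by 0.10 (exact permutation p = 0.325). With quantile normalization the RPS9 ratio (-0.16, exact permutation p = 0.00794) and the RPS21 ratio (0.080, exact permutation p = 0.0397) passed. With the dimmest probe set of each copy, 5000_i_at and 10002_i_at for RPS25, the RPS25 ratio changed by 0.27 and was the 1 pair of 12 that passed (exact permutation p = 0.00794).

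Several ratios differed between letters. RPS26A over RPS26B spanned 1.51 on the log2 scale from its lowest letter, B, to its highest, E, while RPS26B itself had letter means of 1318, 1615, 1663, 1609 and 1526. RPS27A over RPS27B spanned 0.84, highest in A and lowest in E. RPS27A had letter means of 2644, 2556, 2428, 2442 and 2363, with the highest in A, the lowest letter of RPS27B. RPS14A over RPS14B spanned 0.64. RPS14A (YCR031C) had letter means of 2292, 2514, 2805, 2872 and 2767 and RPS14B had 2044, 1875, 1865, 1639 and 1609.8, so the copies moved in opposite directions from A to E. The strain changes of the RPS14 and RPS27 ratios had the largest p of the 12, at 0.011 (exact permutation p = 0.952) and -0.041 (exact permutation p = 0.865). With quantile normalization the spans of RPS26, RPS27 and RPS14 were 0.87, 0.55 and 0.65. The narrowest span was 0.11, for RPS21A over RPS21B, both of which were highest in E.

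**Figure D5:**
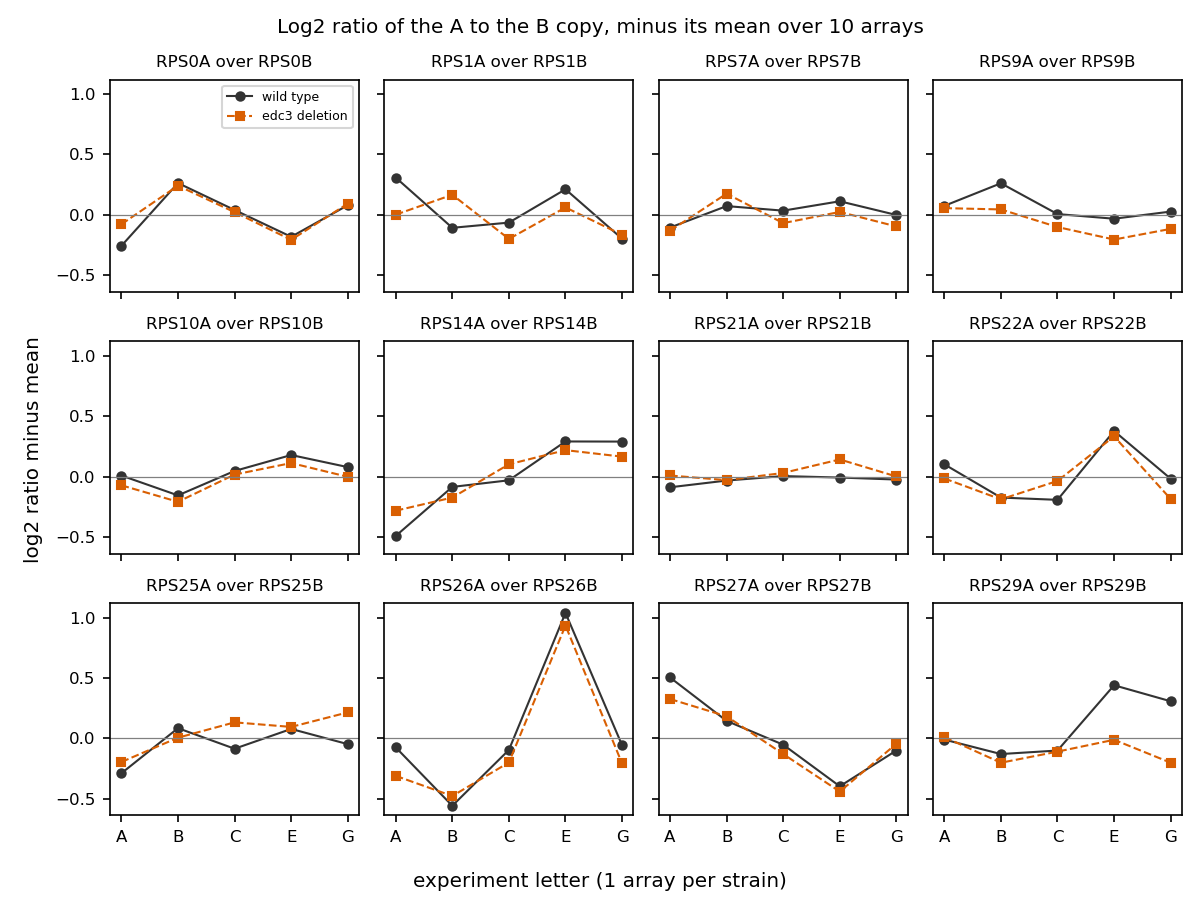
Log2 ratio of the A to the B copy of 12 RPS pairs by experiment letter, minus its mean over the 10 arrays. Each point is 1 array, of wild type (circles) or the edc3 deletion strain (squares). The ratio spans 1.51 between letters for RPS26, 0.84 for RPS27 and 0.64 for RPS14, and 0.11 for RPS21.

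On every array 42 of the 43 members read between 717.6 and 12690. The exception was RPS10B 9413_f_at (YMR230W), which read 21.4 to 31.4 on the 10 arrays, while the second RPS10B probe set, 9414_f_at, read 1921 to 2172. Neither passed the F test over letters (adjusted p = 0.289 and 0.326), and neither strain difference passed (log2 0.093 ± 0.13 and 0.032 ± 0.066, SE).

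Another 21 probe sets are annotated to several genes with an RPS name, and 22 such genes are measured by these alone. Their median log2 difference was -0.035, 0 were called with or without the block and 11 passed the F test over letters (52.4%, near the 51.8% of all tested probe sets). With the block 8 (38.1%) had an unadjusted limma p under 0.05, against 23.1% of all. Bright probe sets above 3000 without an RPS or RPL name gave 38.6%. The strains did not overlap in 2 of the 21, against 1.2% of all. Of the 21, 19 were higher in E than in G, against 36.3% of all and all 114 bright probe sets without an RPS or RPL name. RPS28B, whose mRNA is known to be decayed through Edc3, is no member. It differed by 0.41 ± 0.07 at 10069_f_at and 0.26 ± 0.10 at 10068_i_at (log2, SE; limma adjusted p = 0.0643 and 0.945, and 0.0116 and 0.0730 with the block). RPS28A differed by 0.074 ± 0.16 and -0.027 ± 0.076 (log2, SE).

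Of 42 measured RPL genes, which encode proteins of the large subunit, 0 passed with or without the block, and the median log2 difference was -0.020. RPL15B differed by -0.43 ± 0.13 (log2, SE; limma adjusted p = 0.804), RPL9B by 0.23 ± 0.08 (0.909) and RPL31B by -0.16 ± 0.07 (0.999). Of 13 measured regulators of ribosomal protein genes 0 passed in either fit, with a median of -0.0017. HMO1, a protein bound at their promoters, differed by 0.15 ± 0.09 (log2, SE), DOT6, a repressor of ribosome biogenesis genes, by -0.20 ± 0.12 and TBF1, a DNA-binding factor, by -0.14 ± 0.12. Of 17 assembly factors of the small subunit 0 passed in either fit, with 13 lower in edc3 and a median of -0.13. Of all 6492 tested probe sets 3319 were lower. The 4 higher factors included ENP1 (log2 0.29 ± 0.19, SE) and TSR1 (0.17 ± 0.18). TSR2, which escorts Rps26, differed by -0.32 ± 0.13 (log2, SE; limma adjusted p = 0.993), YAR1, the chaperone of Rps3, by -0.19 ± 0.10 (0.999) and DIM1, which methylates the 18S RNA, by -0.16 ± 0.09 (0.999). The signal of TSR2 was low, at 32.7 to 57.2. Of ASC1 and STM1, whose proteins bind the ribosome, 0 passed, with log2 differences of -0.082 ± 0.12 and -0.095 ± 0.094 (SE).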

How the data were processed

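The deposited intensities are 1 MAS5 signal per probe set and array, per the submitters' processing notes, which give no version. From the values, the authors had scaled the arrays to a common level, since their trimmed means differed by 0.0186% at most. Of 9275 probe sets other than controls, 6504 had 1 gene in the platform annotation, 328 several and 2443 none, and the 6504 were matched to RefSeq genes of assembly R64 by gene ID. No probe-level data or sequences were used here.

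Signals were converted to log2, with 156 signals of 0 raised to 0.1. The dimmest 30% of probe sets by mean log2 signal, below a mean of 16.8, were dropped, leaving 6492. The strain difference was tested with limma 3.58.1 under R 4.3.3 (lmFit, eBayes with an intensity trend), 5 arrays against 5, two-sided, with Benjamini-Hochberg adjustment over the 6492 and a threshold of 0.05, and the letters with limma's F test beside the strain. Same-lettered arrays deviated from their strain means together (correlations across probe sets of 0.475 to 0.713, and each of 10 arrays matched its own letter best), so the letters pair the arrays, and the blocked fit is given where it matters. The scripts were tested on simulated data. The number of arrays limits the precision, and if replicates share a culture, p-values measure technical spread.

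The members and lists were chosen with earlier results of these data known. A rule named EDC3; the members of smallest p without the block (8) and with it (4); those of smallest (5) and largest (2) F test p; the 4 pairs of smallest and 2 of largest p; 3 genes of smallest p per list; and the 5 probe sets most like the members. Other members were named after their values were seen. CRF1, a listed regulator, was not tested. Alternatives were the block, no filter, quantile and median scaling, no trend, an offset of 16, E and G averaged, subsets of letters, the chip lot as a block, and leaving out each array or letter. The chip lot was read from the instrument records. The G arrays, without a record, were entered as a lot of their own, so their true lot is unknown in that fit.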

Additional observations from a re-analysis of the deposited data

Results flagged for a closer look

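Among 86 groups of 5 arrays (43 members in both strains), 9 values lay far from the other 4 arrays of their group by Dixon's test at the 95% level, which flags about 1 group in 20 by chance. Among 24 groups of paralog ratios 1 did. Experiment E accounts for 5 of these. RPS26A 5190_i_at read 12690 in wild type against 4164 to 5585 on the other arrays, and 11699 in edc3 against 4317 to 6078. RPS21A read 12008 in wild-type E against 6572 to 8033, and RPS21B 12044.5 against 6972 to 7989. The log2 ratio of RPS26A to RPS26B was 2.87 in edc3 E against 1.45 to 1.73.

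Experiment B holds 3. RPS25B 10003_f_at read 3270.1 in wild-type B against 3764 to 3874.5. RPS7B 8936_at read 1896 in wild-type B against 2315 to 2382, and 1852 in edc3 B against 2331 to 2487. RPS26B read 1236 in wild-type A against 1511 to 1616, and RPS1B read 3290.2 in edc3 C against 2516 to 2717.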

How the results depend on the processing

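Members called between the strains numbered 0 under every setting run except E and G alone (4). All called probe sets, 5 in the main setting, numbered 29 with the replicate block, 3 with E and G averaged, 8 with the block added, 3 without the trend, 2 with A, B and C alone, 3 with the block added, 1263 with E and G alone and 10 with the chip lot. They numbered 3 to 4 without each array, and under the block 8, 30, 26, 8 and 7 without A, B, C, E and G. Members at an unadjusted p under 0.05 numbered 1 in the main setting, against 4.82% of all tested probe sets. They numbered 11 with the replicate block (25.6%, against 23.1% of all). With E and G averaged they numbered 0, and 4 with the block added. The count was 0 with A, B and C alone, 7 with E and G alone and 4 with the chip lot. It was 1 to 2 without each array and 4 to 13 under the block without each letter. The share of all tested probe sets is not given for these other settings, so their counts do not set the members apart. The member median, -0.025, ran from -0.055 to 0.040 without each array. It was above 0 without wild-type E (0.040), without edc3 B (0.0079), with quantile normalization (0.020) and with A, B and C alone (0.0022). Members at an exact permutation p under 0.05, 2 in the main setting, numbered 1 with median scaling, 1 with E and G averaged, 1 to 3 without each array, and 0 with A, B and C alone, where 3 against 3 cannot pass. Pairs, 0 in the main setting, numbered 2 with quantile normalization, 1 with the dimmest probe sets and 0 to 1 without each array (RPS21 without edc3 B, exact permutation p = 0.0238). The exact sign-flip test paired by letter cannot pass with 5 letters (smallest p 0.0625). Letter calls, 3361 in all and 31 of members, numbered 1076 and 15 with A, B and C alone, and 2350 to 3310 and 18 to 33 without each letter (18 without A). Members called numbered 21 with quantile normalization and 23 without the trend. Members without the family mark, an alternative chosen after seeing the data, gave 23 letter calls of 29.

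None of the values below whose sign turned was called under the setting that turned it; RPS29B was called, with the main sign, with E and G alone. RPS21A was 0.054 with quantile normalization. RPS25A 5001_f_at was -0.0048 with median scaling, -0.0017 with E and G averaged with or without the replicate block, and -0.0057 with A, B and C alone with or without it. RPS29B was -0.029 with A, B and C alone in both fits. With E and G alone RPS28A 8368_i_at was -0.018 and TSR2 0.0056. Without each array RPS21A ran from -0.23 to 0.040, RPS9B 7191_f_at from -0.027 to 0.049, RPS25A 5001_f_at from -0.049 to 0.060, RPS28A 8368_i_at from -0.078 to 0.14 and 8369_f_at from -0.070 to 0.0060, the RPS14 ratio from -0.11 to 0.086 and the RPS27 ratio from -0.15 to 0.080. Under the block without a letter RPS28A 8368_i_at was -0.068 (A), and RPS25A 5001_f_at -0.028 (C) and -0.019 (G). The cause was not tested.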
